A study of Mus musculus with 18 samples.

Results

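The drug shift of the medium to input ratio compares, gene by gene, how much of an mRNA sat in medium-sized polysomes relative to the whole lysate after homoharringtonine (HHT) and after vehicle. For each of 6 lysates the ratio of the medium polysome library to the input library of that lysate was taken, and the 4 HHT lysates were set against the 2 vehicle lysates with both genotypes weighted equally. The ratio uses 12 of the 18 libraries of the series, 8 from HHT and 4 from vehicle lysates, and all 13973 genes of the count table had a value. The other 6 libraries are the heavy polysome fractions of the same lysates.

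The study measured RNA by sequencing in lysates and polysome fractions of hippocampal-cortical slices from male C57BL/6N mice at postnatal day 28 to 35, either wild type (WT) or Fmr1 knockout (KO), a line backcrossed to C57BL/6. The treatment was either DMSO vehicle or HHT at 20 µM, applied at 30 °C for 30 min. There were 2 HHT lysates and 1 vehicle lysate per genotype, and each lysate held 10 slices pooled from 2 or 3 mice. The slices were dounced without detergent, spun at 2000 g and 10000 g, and the supernatant then received 1% NP-40 before it was kept as input or layered on a gradient of 15 to 45% sucrose, so all libraries describe RNA that stayed in that supernatant. Medium and heavy pools were chosen by where FMRP, the protein of Fmr1, appeared on immunoblots. Library preparation started from 200 ng of RNA each time, so every value is a share of its library and amounts of RNA per fraction cannot be compared.

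A polysome is an mRNA with several ribosomes on it. At a given rate of initiation, an mRNA with a longer coding sequence holds more ribosomes and sediments further down the gradient. HHT stops ribosomes that have just begun a coding sequence, while those already elongating finish and leave, so treated mRNAs lose ribosomes from the 5′ end onwards. A short coding sequence is cleared sooner than a long one, and an mRNA that sat in heavy polysomes may pass through lighter ones on the way.

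Estimated counts totalled 6298975 to 13834652 per medium or input library. Fmr1 held 18 to 32.2 CPM, the count scaled to a common library size, in the 6 WT libraries of medium and input and 5.07 to 8.53 CPM in the 6 KO libraries, with no overlap. HHT replicate 2 of both genotypes stood apart from the other libraries in the lowest value of the authors' rescaled TPM table, 0.772 to 0.904 against 1.00 to 1.04, so counts of genes are also given below for HHT replicate 1 alone and replicate 2 alone.

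As examples of mRNAs that fell, rose or did not pass, and because length alone does not order the 3 short ones, 4 coding sequences follow, in lower case with the start codon, and the stop codon of whole sequences, in capitals. They are from GENCODE M21 on GRCm38 (mm10), each written 5′ to 3′ on the coding strand, with Rpl41 and Camk2n1 whole. Rpl41 (chromosome 10, 128548114 to 128549305, minus strand) encodes the smallest cytosolic ribosomal protein and did not pass the test. Mrps33 (chromosome 6, 39801804 to 39810988, minus strand) encodes a protein of the small mitochondrial ribosomal subunit and fell. Camk2n1 (chromosome 4, 138454314 to 138460123, plus strand) encodes an inhibitor of the synaptic kinase CaMKII and rose. Of Mrps33 the first 240 nucleotides (nt) are shown, and the first 60 of 7395 for Map1b (chromosome 13, 99421446 to 99516540, minus strand), which encodes a microtubule-associated protein of axons and dendrites and rose by more than 4-fold. Rpl41, Mrps33 and Camk2n1 have 78, 321 and 237 nt.
Rpl41: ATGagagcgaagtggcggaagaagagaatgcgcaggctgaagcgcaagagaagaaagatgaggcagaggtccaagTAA
Mrps33: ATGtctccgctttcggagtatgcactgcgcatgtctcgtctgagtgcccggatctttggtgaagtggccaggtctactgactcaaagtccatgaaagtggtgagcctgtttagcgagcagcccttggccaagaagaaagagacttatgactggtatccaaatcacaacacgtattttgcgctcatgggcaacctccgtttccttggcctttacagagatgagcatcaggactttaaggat
Camk2n1: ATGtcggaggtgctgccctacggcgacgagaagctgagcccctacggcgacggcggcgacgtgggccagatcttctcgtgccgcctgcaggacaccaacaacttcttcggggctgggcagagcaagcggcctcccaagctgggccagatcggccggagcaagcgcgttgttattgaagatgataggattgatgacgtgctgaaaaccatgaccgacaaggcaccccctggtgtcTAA
Map1b: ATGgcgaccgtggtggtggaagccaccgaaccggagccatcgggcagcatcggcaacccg

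The first question was how many mRNAs changed their ratio and by how much. After HHT the ratio was higher for 1477 genes, 10.6% of those tested, and lower for 1760 genes, 12.6%. Shifts are log2 differences with standard errors (SE) from edgeR's quasi-likelihood test, fitted with each lysate as a block, and rises and falls are those with a Benjamini-Hochberg adjusted p under 0.05. The median shift of all genes was -0.01 with quartiles of -0.38 and 0.31, and the median SE was 0.23. Shifts of at least 1 were found among 376 genes that rose, and shifts of -1 or below among 694 genes that fell. For 1451 genes the 95% interval of the shift lay wholly within 0.5 of 0. The ratios of all 4 HHT lysates lay above both vehicle lysates for 3412 genes (24.4%) and below both for 3580 genes (25.6%). With HHT replicate 1 alone against vehicle 2164 genes rose and 2299 fell, and with replicate 2 alone 2496 rose and 2538 fell, both in a model in which the genotypes share 1 drug term. Without the WT vehicle lysate 265 rose and 426 fell. In that fit, here and below, the HHT lysates of both genotypes were set against the KO vehicle lysate, so genotype can enter the shift. The p-values measure only the spread between these pooled lysates, and the 2 vehicle lysates, 1 per genotype, are assumed to vary like the HHT lysates.

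Among genes with a mean of at least 5 CPM, the largest rises belonged mostly to mRNAs with long coding sequences, and the 12 named ran from 2184 nt (Ncam2) to 9045 nt (Map1a). Map1b held 269 and 304 CPM in the medium fraction of the WT and KO vehicle lysates, and 1123, 834, 854 and 591 CPM in those of WT HHT replicates 1 and 2 and KO HHT replicates 1 and 2. In input it held 1418 and 1281 CPM in vehicle and 1084, 810, 1188 and 564 CPM in HHT lysates in the same order. Its log2 ratio of medium to input was thus -2.40 and -2.08 in vehicle and 0.05, 0.04, -0.48 and 0.07 in HHT, without overlap, a shift of 2.14 ± 0.29 or 4.42-fold (adjusted p = 0.000676).

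Zc3h13, a subunit of the complex that writes N6-methyladenosine on mRNA, had the largest rise of this set, 2.28 ± 0.32 or 4.87-fold (adjusted p = 0.000744). Its ratio was -1.82 and -1.95 in vehicle and ran from -0.02 to 0.70 in the 4 HHT lysates. Prpf8, the central scaffold of the spliceosome (chromosome 11, 75486816 to 75509449), rose by 2.21 ± 0.28 (adjusted p = 0.000653), from -2.09 and -1.98 in vehicle to between -0.01 and 0.34. Map1a, the sister of Map1b, rose by 1.93 ± 0.21. Cltc, the clathrin heavy chain that coats endocytic vesicles, rose by 1.76 ± 0.22, and Polr2a, the largest subunit of RNA polymerase II, by 1.78 ± 0.19. The 12 largest rises also took in the insulin receptor substrate Irs2 (1.8), the endosomal protein Wdr81 (1.79), the GATA cofactor Zfpm2 (1.78), the adhesion molecule Ncam2 (1.76), the splicing cofactor Son and the topoisomerase Top2b (1.73).

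The largest falls of this set belonged mostly to mRNAs of small proteins. Genes that did not meet the conditions for naming fell further, to -3.07. Psmb4, a subunit of the proteasome core (chromosome 3, 94884093 to 94886961), held 173 and 139 CPM in the medium fraction of the vehicle lysates and 39.5 to 43.5 CPM in that of the HHT lysates. In input the same lysates held 85.7 and 84.6 CPM and 79.1, 116, 72.7 and 122 CPM. The ratio was therefore 1.01 and 0.72 in vehicle and between -1.6 and -0.74 in HHT, a shift of -2.09 ± 0.22 or 4.27-fold lower (adjusted p = 0.000612).

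Ndufab1, the acyl carrier protein of mitochondrial complex I, fell by 2.06 on the log2 scale (SE 0.21), from ratios of 1.06 and 0.83 in vehicle to between -1.35 and -0.83. The fatty-acid-binding protein Fabp5 fell from 0.85 and 0.79 to between -1.59 and -0.71, a shift of -2.0 ± 0.23. Ifitm2, an interferon-induced membrane protein with a mean of 5.42 CPM, stood at -2.17 ± 0.35, the lowest value of the set. Others of the 12 were the complex I subunit Ndufb4 (-2.01), the nucleotidase Nt5c (-1.98), the small GTPase Rhoc (-1.97), the rRNA processing factor Fcf1 (-1.97), the microsomal glutathione transferase Mgst3 (-1.97), the HLH inhibitor Id3 (-1.97) and the proteasome subunit Psmb6 (-1.88).

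The 4 HHT lysates were on one side of both vehicle lysates for each of the 24 genes of both sets, which the rule for naming them required. Other fits reuse the libraries that picked these genes, so they are not independent tests. All 24 kept their direction in each of 19 other ways of fitting, and all were called in each except DESeq2 (21 of 24), the fit without the WT vehicle lysate (23) and KO slices alone (0).

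**Figure D1:**
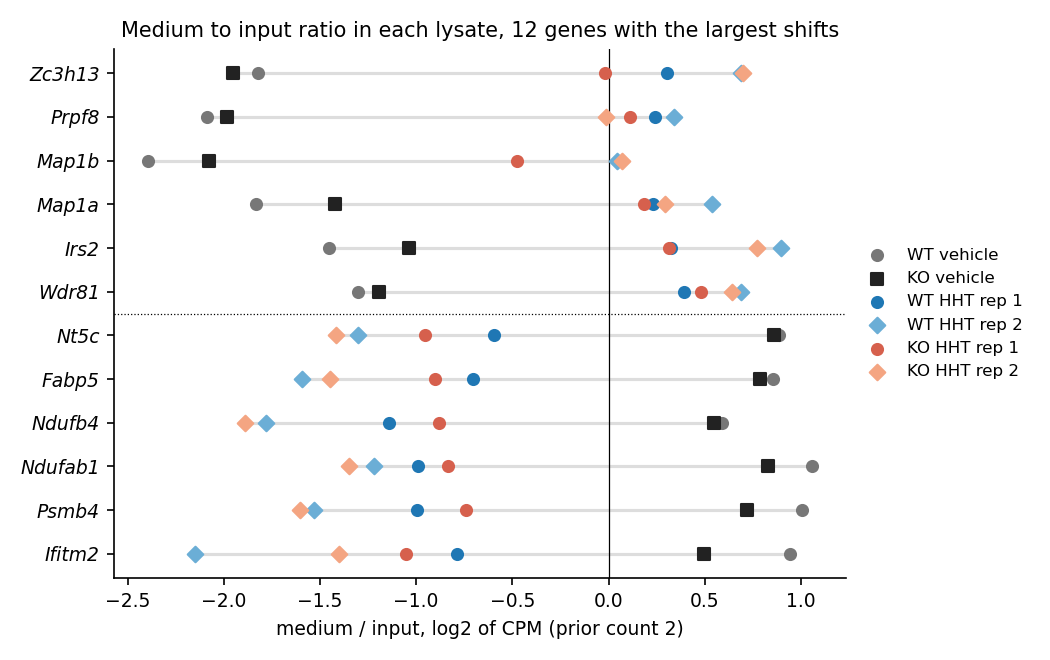
The log2 ratio of medium to input CPM (horizontal axis) in each of the 6 lysates for the 6 genes with the largest rise (above the dotted line) and the 6 with the largest fall. Each point is 1 lysate: for Map1b both vehicle lysates lie at -2.40 and -2.08 and the HHT lysates between -0.48 and 0.07, whereas for Psmb4 the vehicle lysates lie at 1.01 and 0.72 and the HHT lysates between -1.6 and -0.74.

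The shift rose with the length of the mRNA. Of the 13973 genes, 13513 were matched to a coding sequence, and across them the shift and coding length had a Spearman rho of 0.53, given as a description because genes of the same libraries are not replicates. For the length of the whole transcript the rho was 0.56, and 0.32 given coding length. Genes that rose had a median coding length of 2804 nt, genes that fell 783 nt and genes not called 1461 nt. Of 1362 genes with 300 to 600 nt, 498 fell and 19 rose, with a median shift of -0.48. Of 657 genes with 4500 to 9000 nt, 298 rose and 0 fell, with a median of 0.61. Between these ends the median climbed from -0.36 at 600 to 900 nt through -0.14 at 900 to 1500 nt, 0.12 at 1500 to 3000 nt and 0.37 at 3000 to 4500 nt.

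Both ends of the range turned back. The 268 genes with at most 300 nt had a median of -0.21, and 50 of them fell and 12 rose. The 104 genes with more than 9000 nt had a median of 0.46, and 39 rose and 0 fell. The rho was 0.54 for the shift in WT and 0.43 in KO. For single HHT lysates against the vehicle lysate of their genotype it was 0.52 and 0.53 in WT and 0.37 and 0.45 in KO.

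**Figure D2:**
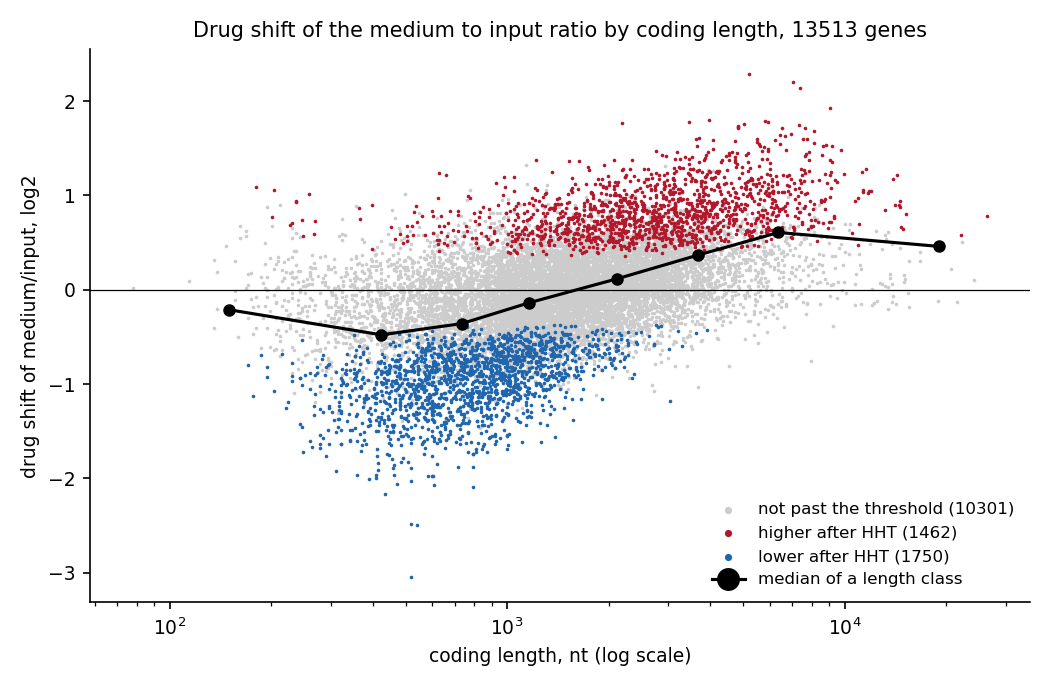
Drug shift of the medium to input ratio (vertical axis, log2) against coding length in nt (horizontal axis, log scale) for the 13513 genes matched to a coding sequence, coloured by call. The black line joins the medians of 8 length classes, which run from -0.48 at 300 to 600 nt to 0.61 at 4500 to 9000 nt.

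Of the 2 parts of the ratio, the medium level followed coding length. Across the same genes coding length had a rho of 0.47 with the HHT minus vehicle change in medium and of -0.04 with that in input. The shift of the heavy to input ratio had a rho of -0.01 with coding length, but it did not run in 1 direction. Its median was 0.25 at up to 300 nt, -0.17 at 1500 to 3000 nt and 0.90 above 9000 nt. The medium and input changes make up the shift, and the heavy shift uses the same input libraries, so these are not independent results. Genes with 300 to 600 nt had a median change of -0.50 in medium and 0.00 in input. Genes with 4500 to 9000 nt had a median change of 0.57 in medium and -0.11 in input. In medium 3551 genes (25.4%) were higher and 3011 (21.5%) lower after HHT, and in input 1702 (12.2%) were higher and 30 (0.215%) lower.

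The levels in the lysates show where each class started. Among genes without a predicted hydrophobic segment, those of 600 to 900 nt had a median log2 ratio of 0.45 and 0.31 in the WT and KO vehicle lysates, and of -0.12, -0.23, -0.06 and -0.22 in the HHT lysates. Those of 4500 to 9000 nt stood at -0.63 and -0.54 in vehicle and at 0.13, 0.20, -0.01 and 0.14 in HHT. Between these classes the order in vehicle was thus turned over in HHT lysates. The shortest class, at most 300 nt, was below 0 in vehicle too, at -0.09 and -0.17, and cytosolic ribosomal protein mRNAs had medians of -0.40 and -0.51 there.

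A predicted hydrophobic segment, the mark of most membrane and secreted proteins, went with fewer falls among mRNAs of 300 to 1500 nt. A segment was scored where 19 residues in a row had a mean Kyte-Doolittle hydropathy of at least 1.6. With 300 to 600 nt, 434 of 1020 genes without such a segment fell, at a median of -0.58, and 64 of 342 genes with one, at a median of -0.22. With 600 to 900 nt the medians were -0.49 and -0.09. With 900 to 1500 nt, 470 of 2440 genes without and 83 of 1334 with a segment fell, and the medians were -0.23 and 0.01. With 3000 to 4500 nt they were 0.37 and 0.36, and with at most 300 nt -0.21 in both. Genes with a segment made up 36.1% of all matched genes, 38.2% of those that rose and 14.6% of those that fell. Their input share moved as well. The median change in input was 0.39 with a segment and -0.06 without, and in medium 0.50 and -0.15. The labels describe a homogenisation without detergent, and whether the recovery of membrane-bound RNA differed between treatments was not tested.

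**Figure D3:**
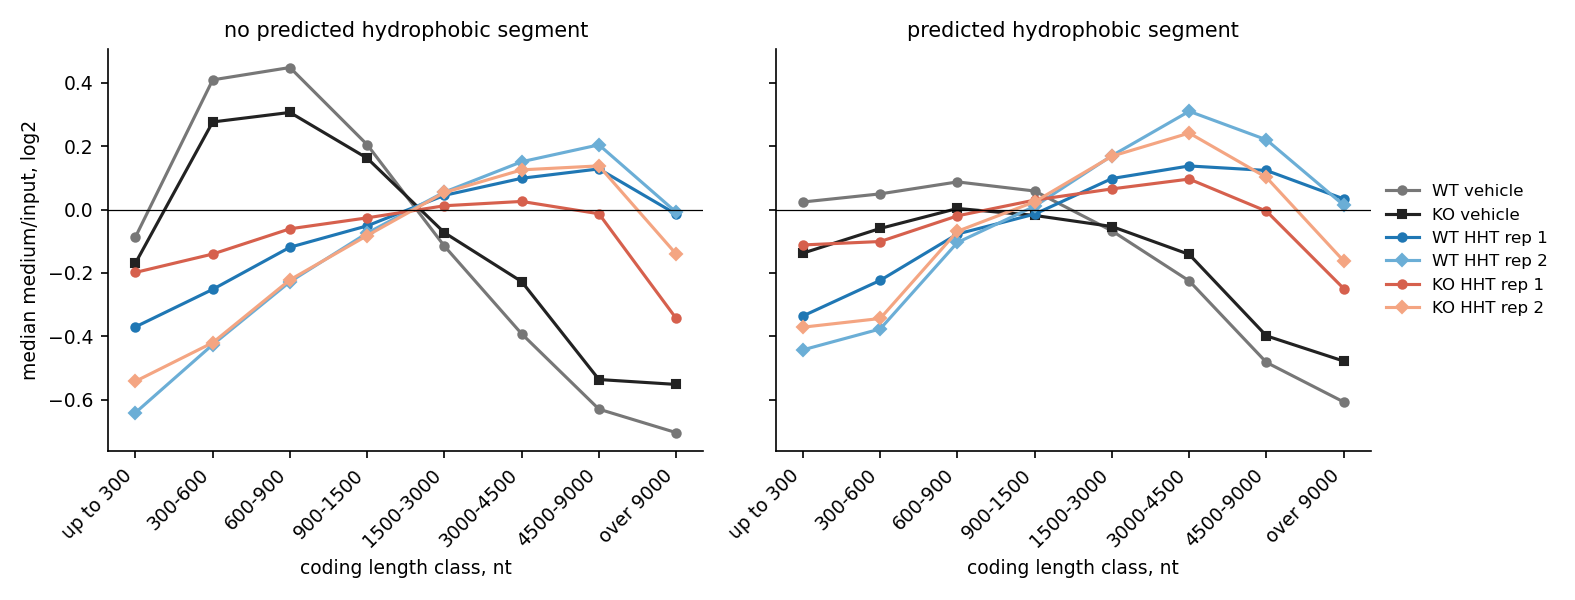
Median log2 ratio of medium to input (vertical axis) in 8 classes of coding length (horizontal axis), 1 line per lysate, for genes without (left) and with (right) a predicted hydrophobic segment. Left, the vehicle lines peak at 0.45 and 0.31 at 600 to 900 nt and fall to -0.63 and -0.54 at 4500 to 9000 nt, while the HHT lines run the other way; right, the short classes start near 0 in vehicle.

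Untranslated regions went with the shift as well. Given coding length, the partial rho with the shift was 0.27 for the length of the 3′ UTR and 0.26 for that of the 5′ UTR. Median lengths were 1711 nt of 3′ UTR and 260 nt of 5′ UTR for genes that rose, and 610 and 122 nt for genes that fell. Within 300 to 600 nt of coding sequence, 299 of 747 genes without an upstream ATG fell at a median of -0.54, and 106 of 341 genes with 2 or more at a median of -0.40. With 3000 to 4500 nt, 150 of 483 genes without an upstream ATG rose at a median of 0.40, and 104 of 424 genes with 2 or more at a median of 0.30.

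The mRNAs of ribosomes and mitochondria fell together. Of the 81 cytosolic ribosomal proteins 57 fell (70.4%, against 12.6% of all genes) and 0 rose. The median shift was -0.86 against -0.01 for all genes, and the median coding length was 456 nt. Rps3, a protein at the mRNA entry of the small subunit, went from ratios of 0.09 and -0.04 in vehicle to -1.06, -1.49, -1.0 and -1.56 in HHT, a shift of -1.31 ± 0.20 (adjusted p = 0.00105). Rps13 stood at -1.31 ± 0.20 and Rpl15 at -1.10 ± 0.18. The ratios of all 4 HHT lysates lay below both vehicle lysates for 70 of the 81, against 25.6% of all genes. The median of the list was -0.60 with HHT replicate 1 alone and -1.08 with replicate 2 alone, and limma on the per-lysate ratios called 29 of the 81 lower.

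Rpl41, printed above, was among the 24 that were not called. It held 64.0 and 65.6 CPM in medium in vehicle and 63.4 to 68.2 CPM in HHT, with a shift of 0.01 ± 0.22 (adjusted p = 0.976). Its ratio was already low in vehicle, at -1.33 and -1.18. Rps28 (0.35), Rpl22 (-0.04) and Rpl39 (-0.11) also did not pass the test. Within the list, rho with coding length was -0.18, so the shift did not follow length there as it did across all genes.

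Of the 76 mitochondrial ribosomal proteins 57 fell (75%, against 12.6% of all genes) and 0 rose, with a median of -1.06. Mrps33, the second sequence printed, held 56.6 and 47.4 CPM in medium in vehicle and 17.6, 15.4, 18.7 and 20.7 CPM in HHT. Its ratio went from 0.54 and 0.53 to between -1.50 and -0.59, a shift of -1.64 ± 0.23 (adjusted p = 0.000784). Mrpl2 stood at -1.53 ± 0.20 and Mrpl10 at -1.25 ± 0.19.

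Of the 76 nuclear-encoded subunits of the respiratory chain 59 fell (77.6%, against 12.6% of all genes) and 1 rose, with a median of -1.13. Ndufs3, a core subunit of complex I, fell by 1.88 on the log2 scale (SE 0.21), the iron-sulphur subunit Sdhb of complex II by 1.65 (SE 0.21) and Ndufs7 by 1.50 (SE 0.18). The member that rose was Ndufs1 (0.64, adjusted p = 0.00507), a core subunit of complex I with the longest coding sequence of the list, 2184 nt. Across the whole list rho with coding length was -0.12, and -0.02 for mitochondrial ribosomal proteins. Without the WT vehicle lysate the falls numbered 15 of cytosolic ribosomal proteins, 21 of mitochondrial ribosomal proteins and 37 of the respiratory chain, and the medians were -0.79, -0.96 and -1.01.

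Most proteasome subunits fell. Of 37 subunits 25 fell (67.6%, against 12.6% of all genes) and 3 rose (8.11%, against 10.6%), with a median of -0.81. The core subunits Psmb4, Psmb6, Psmb3 (-1.85 ± 0.22) and Psmb1 (-1.64 ± 0.21) fell. The 3 that rose were the large regulatory particle scaffold Psmd1 (0.77), the deubiquitinase Psmd14 (0.52), with a short coding sequence of 933 nt, and the activator Psme4 (0.82), whose coding sequence is the longest of the list at 5532 nt. Within the list rho with coding length was 0.66. For this list the heavy to input ratio moved the same way, with 30 of 37 lower and a median of -1.01, against 17.8% of all genes lower. Without the WT vehicle lysate 0 subunits rose and 16 fell in the medium ratio.

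Glycolysis showed the same range within 1 pathway. Of 17 genes 3 rose (17.6%, against 10.6% of all genes) and 4 fell (23.5%, against 12.6%), at a rho of 0.80 with coding length. Tpi1, triose phosphate isomerase with 900 nt, held 1319 and 1079 CPM in medium in vehicle and 428 to 454 CPM in HHT, and its shift was -1.55 ± 0.18 (adjusted p = 0.000612). Hk1, the brain hexokinase with 2838 nt, held 437 and 598 CPM in vehicle and 910 to 984 CPM in HHT, with a shift of 0.90 ± 0.15 (adjusted p = 0.00146). In input both stayed near their vehicle level, with changes of 0.12 and 0.00. Pgam1 fell by 1.22 on the log2 scale, Ldhb by 0.65 and Gapdh by 0.54. Without the WT vehicle lysate 0 of the 17 rose and 2 fell.

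Translation factors divided as well, with 12 of 52 higher (23.1%), 14 lower (26.9%) and a median of -0.29. Over all genes 10.6% rose and 12.6% fell. The scaffold of the cap-binding complex Eif4g3 rose by 1.41 ± 0.18 and the release factor Gspt1 by 1.18 ± 0.17. The helicase cofactor Eif4h fell by 0.87 on the log2 scale (SE 0.13), as did the eIF3 subunits Eif3g (-1.08) and Eif3i (-1.10). Of 28 tRNA synthetases 6 rose (21.4%), among them Eprs (1.43 ± 0.26) and Aars (1.21 ± 0.15), and 1 fell (3.57%), Hars (-0.51). The 41 small GTPases, switches of membrane traffic and the cytoskeleton, all have coding sequences between 528 and 663 nt. Of these 21 fell (51.2%) and 0 rose. Arf1 went from ratios of 0.89 and 0.64 to between -0.46 and -0.14, a shift of -1.08 ± 0.15. Rap2a (0.34, adjusted p = 0.173) had a value above 0 that did not pass. When the WT vehicle lysate was dropped, 2 translation factors and 2 synthetases rose, and 4 factors, 0 synthetases and 7 GTPases fell.

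**Figure D4:**
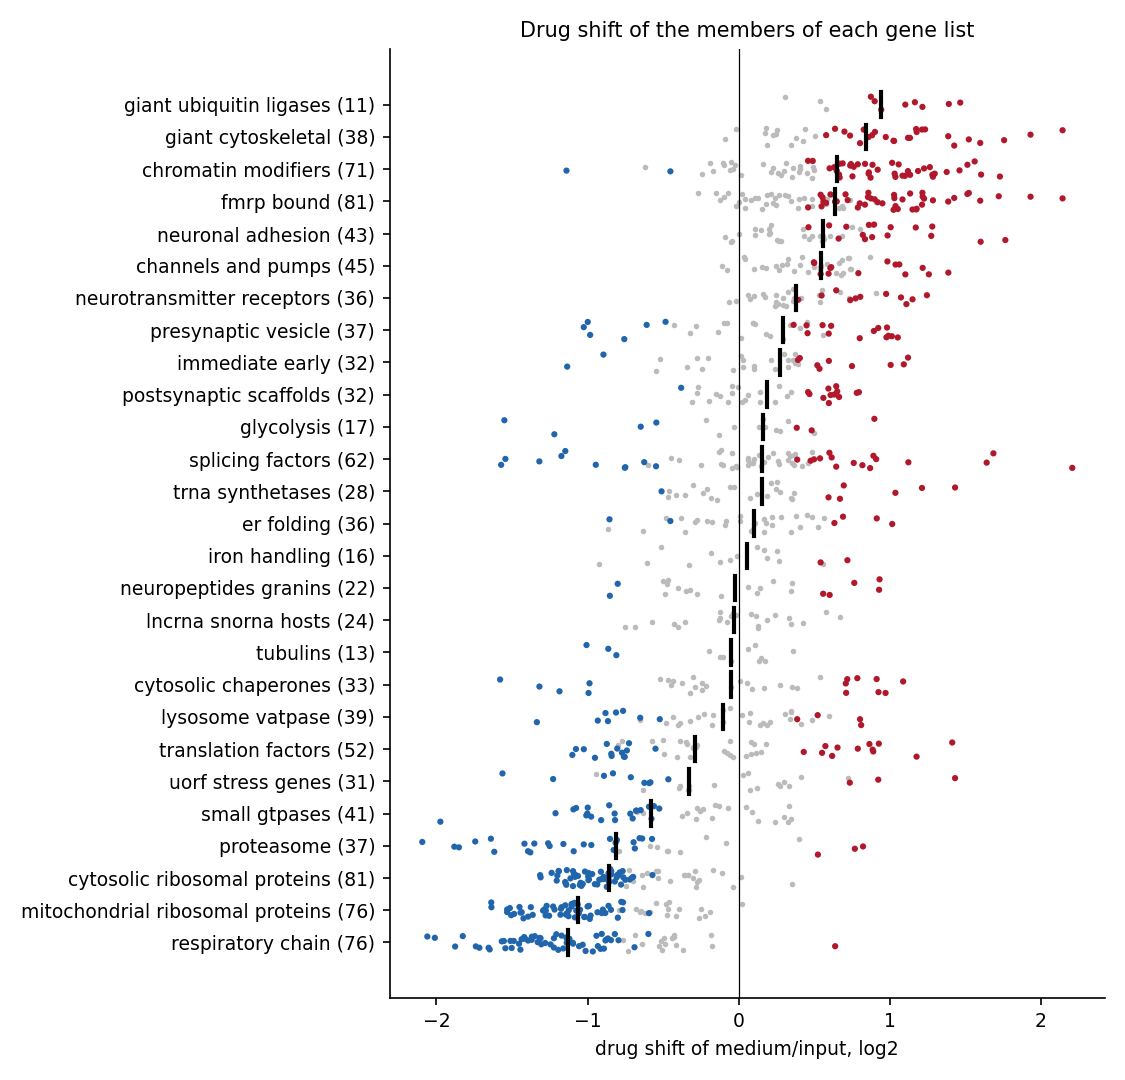
Drug shift of medium to input (horizontal axis, log2) of every measured member of 27 gene lists, with the number measured after each name. Each point is 1 gene, red where it rose, blue where it fell and grey where it did not pass, and the black bar is the median, from -1.13 for the respiratory chain to 0.94 for giant ubiquitin ligases; points are spread vertically only to separate them.

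Many genes of large cytoskeletal, chromatin and ubiquitin proteins rose. Of 38 giant cytoskeletal and trafficking genes 25 rose (65.8%, against 10.6% of all genes) and 0 fell. Their median shift was 0.84 and their median coding length 6286.5 nt. Map2, the dendritic microtubule-associated protein, went from ratios of -1.32 and -1.07 to 0.47, 0.62, -0.06 and 0.61, a shift of 1.6 ± 0.18 (adjusted p = 0.000612). The axonal motor Kif1a rose by 1.43 ± 0.18. Sptb (-0.02), a spectrin, did not pass. Of 11 giant ubiquitin ligases measured 8 rose (72.7%), among them Ubr3 (1.39 ± 0.25), and 0 fell. Ubr4 (0.31), Gm15800 (0.54) and Huwe1 (0.58) did not pass.

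For these ligases the heavy to input ratio rose with the medium ratio, with 9 of 11 higher against 16.3% of all genes and a median of 1.63. Their medium ratio within the list fell with length, at a rho of -0.64 over 11 genes. The heavy ratio was also higher for 36 of 45 channels and pumps, 33 of 43 neuronal adhesion molecules and 22 of 36 neurotransmitter receptors. It was higher for 60 of 81 FMRP target mRNAs, 19 of 38 cytoskeletal genes and 23 of 71 chromatin modifiers. Of 71 chromatin modifiers 40 rose (56.3%, against 10.6% of all genes) and 2 fell (2.82%, against 12.6%), with a median of 0.65. The chromatin remodellers Smarca4 and Chd4 rose by 1.73 ± 0.20 and 1.51 ± 0.20, and the histone demethylases Kdm5b and Kdm4b by 1.46 ± 0.20 and 1.30 ± 0.16. The 2 that fell were the short deacetylase Hdac3 (-1.14) and the acetyltransferase Kat2a (-0.45). With the WT vehicle lysate left out, 13 of 38 cytoskeletal genes, 4 of 11 ligases and 16 of 71 chromatin modifiers rose, with medians of 0.81, 0.92 and 0.61.

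Of 62 splicing factors 16 were higher (25.8%, against 10.6% of all genes) and 10 lower (16.1%, against 12.6%). Among the rises were those of Prpf8, Srrm2 (1.68 ± 0.24) and the helicase Snrnp200 (1.64 ± 0.24), and among the falls those of U2af1 (-1.57) and the Sm proteins Snrpe (-1.54), Snrpd1 (-1.32), Snrpd2 (-1.17) and Snrpd3 (-1.15). In the fit that left out the WT vehicle lysate, 5 splicing factors rose and 4 fell. Of 24 measured long noncoding RNAs and snoRNA hosts, which carry no long coding sequence, 0 rose and 0 fell in edgeR, with a median of -0.03. Their shifts ran from -0.75 to 0.67, and 12 of the 24 had a mean of at least 5 CPM. The median was 0.23 with HHT replicate 1 alone and -0.29 with replicate 2 alone. The lack of calls therefore does not show that their ratios were unchanged. Among all genes 4868 had an unadjusted p under 0.05.

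Known FMRP target mRNAs formed a list that overlaps the cytoskeletal and chromatin lists. Of the 81, 43 were higher (53.1%, against 10.6% of all genes) and 0 lower. Among all genes with 4500 to 9000 nt of coding sequence, 298 of 657 (45.4%) rose and 0 fell, at a median of 0.61. The median of the FMRP targets was 0.64 in the fit of both genotypes, 0.77 in WT and 0.51 in KO. All genes of that length class had medians of 0.70 in WT and 0.49 in KO, so the gap was not particular to the targets. Map1b, Map1a, the growth kinase Mtor (1.72), Map2 and Nav1 (1.52) led. The postsynaptic scaffolds Dlgap3 (-0.27) and Dlg4 (-0.15) and the GTPase activator Agap2 (-0.13) did not pass. The median coding length of the list was 5748 nt, and without the WT vehicle lysate 15 of 81 rose.

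Neuronal membrane protein mRNAs had median changes above 0 in the medium ratio and in input, though most members did not pass in the medium ratio. Of 43 adhesion molecules 16 rose (37.2%, against 10.6% of all genes) and 0 fell, with a median shift of 0.56. Their median change was 1.68 in medium and 1.09 in input. Nrcam, an axonal adhesion molecule, held 86.3 and 88.2 CPM in input in vehicle and 468, 188, 477 and 201 CPM in HHT. In medium it held 53.1 and 62.0 CPM in vehicle and 627, 395, 578 and 411 CPM in HHT. Its ratio went from -0.70 and -0.51 to between 0.28 and 1.07, a shift of 1.28 ± 0.26 (adjusted p = 0.0041).

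Of 45 channels and pumps 14 rose (31.1%, against 10.6% of all genes) and 0 fell. Their medians were 0.54 for the shift, 1.28 in medium and 0.80 in input. The calcium channel subunit Cacna2d1 rose by 1.39 ± 0.30 and the plasma membrane calcium pump Atp2b3 by 1.26 ± 0.26. Of 36 neurotransmitter receptors 11 rose (30.6%) and 0 fell. Gria1, an AMPA receptor subunit, rose by 0.74 ± 0.16 in ratio, 1.97 in medium and 1.26 in input, and the GABA receptor subunit Gabra2 by 1.25 ± 0.30 in ratio. The fit without the WT vehicle lysate called 0 adhesion molecules, 1 channel and 0 receptors, with medians of 0.46, 0.52 and 0.32. With all lysates but no lysate term in the model (no replicate block), 1 adhesion molecule, 2 channels and 0 receptors were called, with medians of 0.52, 0.53 and 0.36.

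Postsynaptic scaffolds and presynaptic proteins, mostly without a hydrophobic segment in the first group, gave 12 of 32 (37.5%) and 14 of 37 (37.8%) higher. Lower were 1 (3.12%) and 6 (16.2%). Over all genes 10.6% rose and 12.6% fell. The scaffold Lrrc7 (0.79 ± 0.16) and the exchange factors Trio (0.78 ± 0.16) and Kalrn (0.65 ± 0.15) rose, and the exchange factor Iqsec2 (-0.38) fell. At the presynapse the active zone proteins Bsn (1.05), Ppfia3 (1.01) and Unc13a (0.99) rose, and Napa (-1.03), Rab3a (-1.0) and Stx1a (-0.76), which act in vesicle docking and fusion, fell. The rho with coding length was 0.77 within the presynaptic list. When the WT vehicle lysate was dropped, 0 scaffolds and 1 presynaptic gene rose, and 3 presynaptic genes fell.

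ER folding genes moved in both libraries and therefore little in ratio. Of 36 members 4 rose (11.1%, against 10.6% of all genes) and 2 fell (5.56%, against 12.6%), with a median shift of 0.10, but the median change was 1.29 in medium and 1.09 in input. Hspa5, the ER chaperone BiP, held 74.7 and 141 CPM in input in vehicle and 225 to 323 CPM in HHT. In medium it went from 41.7 and 94.7 CPM to between 295 and 382 CPM, and its shift was 1.02 ± 0.16 (adjusted p = 0.00127). With the WT vehicle lysate left out, 1 member rose and 0 fell.

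Of the 22 neuropeptide and granin genes 5 were higher (22.7%, against 10.6% of all genes) and 2 lower (9.09%, against 12.6%). The list had medians of 1.05 in medium, 1.14 in input and -0.03 in ratio. Pcsk2, a prohormone convertase, rose in ratio by 0.93 ± 0.18. Pcsk1n, the precursor of an inhibitor of the convertase Pcsk1, changed by 1.07 in input and stood at 0.22 in medium, and its ratio fell by 0.85 on the log2 scale (SE 0.22, adjusted p = 0.0134). Of 39 lysosomal and proton pump genes 4 rose (10.3%, against 10.6% of all genes) and 8 fell (20.5%, against 12.6%). The falls included the cytosolic pump subunits Atp6v1g1 (-1.34), Atp6v0d1 (-0.93) and Atp6v1d (-0.87), and the rises the lysosomal membrane proteins Scarb2 (0.81) and Npc1 (0.80). In the fit that left out the WT vehicle lysate, 0 genes of the peptide list were called, and 0 lysosomal genes rose and 3 fell.

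**Figure D5:**
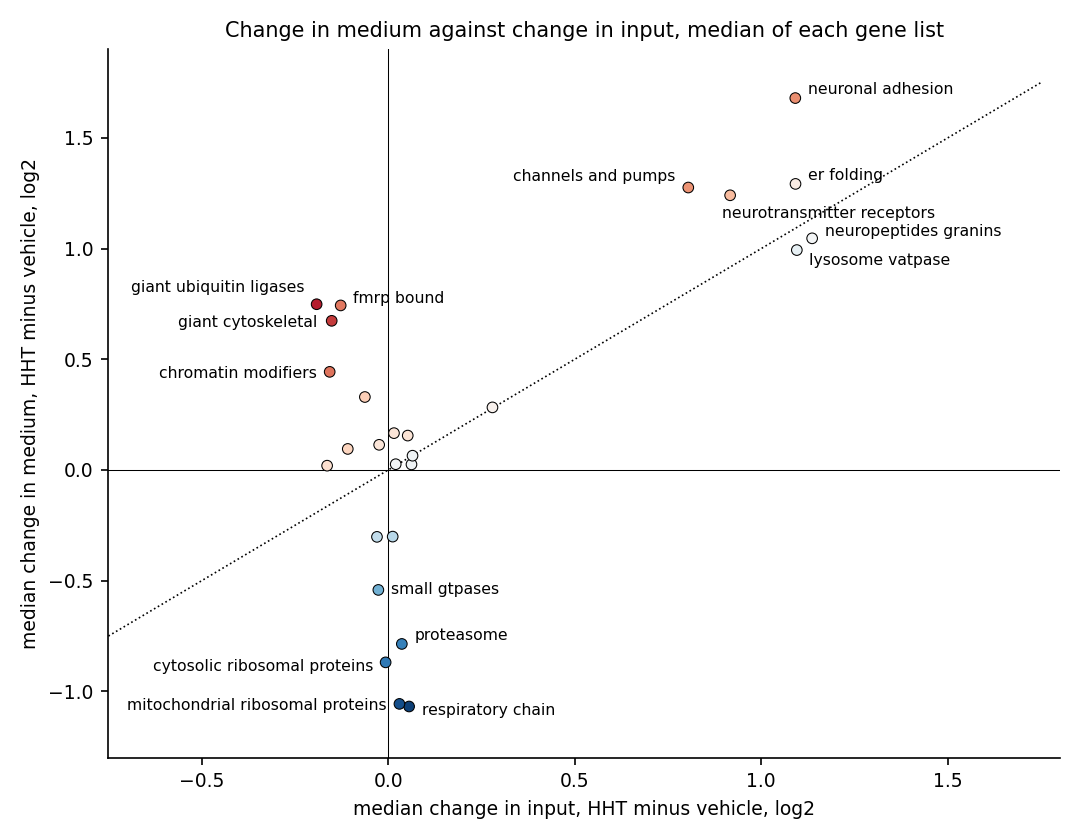
Median HHT minus vehicle change in medium (vertical axis, log2) against that in input (horizontal axis, log2) for 27 gene lists, 1 point each, coloured by median shift. Points on the dotted line would have no shift: ER folding lies near it at 1.09 and 1.29, while the respiratory chain (0.06 and -1.07) and giant ubiquitin ligases (-0.19 and 0.75) changed in medium with little change in input.

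In tubulins and cytosolic chaperones, as in several other lists, more members fell in the heavy ratio than in the medium ratio. The heavy ratio was lower for 15 of 17 glycolysis genes and 21 of 28 tRNA synthetases, against 17.8% of all genes. It was also lower for 39 of 62 splicing factors and 29 of 52 translation factors. Fewer fell in heavy than in medium among cytosolic ribosomal proteins (8 of 81) and the respiratory chain (16 of 76). Of 13 tubulins 0 rose and 3 fell in the medium ratio (23.1%, against 12.6% of all genes), namely Tubb6, Tubg1 and Tuba8. All 13 fell in the heavy ratio, at a median of -1.40. Tubb5 stood at 0.36 ± 0.15 in the medium ratio (adjusted p = 0.111) and at -1.45 in the heavy ratio. Of 33 cytosolic chaperones 28 fell in the heavy ratio. In the medium ratio 8 rose (24.2%, against 10.6% of all genes) and 5 fell (15.2%, against 12.6%). The long Hspa4 (0.92 ± 0.14) and Hsp90aa1 (0.97) rose, and the small heat shock proteins Cryab (-1.32 ± 0.22) and Hspb1 (-1.58) fell. When the WT vehicle lysate was dropped, 1 tubulin fell, and 1 chaperone rose and 2 fell.

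Immediate early genes, which are induced by activity and by tissue handling, gave 9 of 32 higher (28.1%) and 2 lower (6.25%). The nuclear receptors Nr4a3 (1.12 ± 0.20) and Nr4a2 (1.01 ± 0.15) and the clock gene Per1 (1.09 ± 0.17) rose, and the stress factor Atf3 (-1.13 ± 0.21) and Gadd45g (-0.90) fell. Of 31 stress genes, many with regulatory upstream reading frames, 3 rose (9.68%) and 9 fell (29%), against 10.6% and 12.6% of all genes. Eprs, which also counts among the synthetases, rose, and Ifrd1 (-1.23 ± 0.16), Cebpb (-1.56) and Ppp1r15a (-0.62 ± 0.14) fell. Of 16 iron handling genes 2 rose, Aco1 (0.72 ± 0.17) and Ncoa4 (0.54 ± 0.15), and 0 fell, a share of 12.5% higher that is near the 10.6% of all genes. With the WT vehicle lysate left out, 3 immediate early genes rose and 1 fell, 0 stress genes rose and 1 fell, and 0 iron handling genes were called.

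Genes that went against their length were looked for after the values were seen. Of 1562 genes whose longest annotated coding sequence was at most 600 nt, 29 rose and 530 fell. Camk2n1, the third sequence printed, was the most abundant of the 8 largest of these rises. It held 675 and 588 CPM in medium in vehicle and 997, 1251, 1027 and 1006 CPM in HHT. Its ratio went from -0.45 and -0.38 to 0.44, 0.46, 0.57 and 0.64, a shift of 0.95 ± 0.19 (adjusted p = 0.00394), and its heavy to input shift was 0.79 ± 0.19.

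Other short mRNAs that rose were Chchd7 (1.02), Smim1 (0.93), Tmem170b (0.90), Nbl1 (0.89), the translational repressor Eif4ebp2 (0.86) and the ER protein Serp1 (0.78). Of 1942 genes with more than 3000 nt, 673 rose and 6 fell. Ccdc136 fell by 0.63 on the log2 scale (SE 0.16), and Zswim4 (-0.59), the transcription factor Camta2 (-0.46), the ubiquitin ligase Ube3b (-0.44) and Arhgap33 (-0.42) also fell.

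Markers of the cell types in the slices moved in both directions. Of 10 excitatory neuron markers 4 rose and 2 fell, and of 12 inhibitory neuron markers 3 and 2. Of 13 astrocyte markers 4 rose and 2 fell, and of 10 oligodendrocyte markers 3 and 3. Over all genes 10.6% rose and 12.6% fell. Among excitatory neuron markers Camk2a (0.56) rose, and Neurod2 (-0.61) fell. The inhibitory neuron markers Gad1 (0.86) and Gad2 (0.85) rose, and Pvalb (-0.85) and Npy (-0.80) fell. The astrocyte markers Sox9 (1.37), Slc1a2 (0.95) and Slc1a3 (0.70) rose, and Gfap (-1.13) and S100b (-1.02) fell. Among oligodendrocyte markers Cnp (0.68) rose, and Mbp (-0.80) and Mobp (-0.53) fell. In the fit that left out the WT vehicle lysate, 0 excitatory, 2 inhibitory, 1 astrocyte and 0 oligodendrocyte markers rose, and 0, 0, 1 and 1 fell.

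Microglia markers leaned down, with 5 of 12 lower (41.7%, against 12.6% of all genes) and 1 higher (8.33%, against 10.6%). Their median was -0.73, and rho with coding length was 0.91 over these 12. When the WT vehicle lysate was dropped, 0 of them were called, at a median of -0.45. C1qb, a complement subunit, held 12.3 and 18.4 CPM in input in vehicle and 27.8 to 35.6 CPM in HHT, while medium held 19.4 and 18.3 CPM and 13.2 to 16.1 CPM, a shift of -1.29 ± 0.24. The summed level of the 12 microglia markers in input was 104 to 146 CPM in vehicle and 217 to 267 CPM in HHT, and in medium 95.6 to 100.1 and 112 to 148 CPM. The 13 endothelial and mural markers summed to 44.0 to 48.6 CPM in input in vehicle and 98.9 to 117 CPM in HHT, the 7 choroid plexus markers to 99.0 to 152 and 196 to 312 CPM, and the 13 astrocyte markers to 2197 to 2633 and 3578 to 4004 CPM. The 12 inhibitory neuron markers summed to 1019 to 1071 and 1284 to 1533 CPM in input, and to 847 to 945 and 1578 to 1819 CPM in medium. Whether more cells of a type or more of their RNA in the lysate gave these levels cannot be told apart in bulk RNA, and their part in the shifts was not tested. The 2 measured blood genes ran from 2.19 to 27.8 CPM in input, and 0 of them passed.

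The last question was whether the shift depended on FMRP. The shift was compared between KO and WT slices in the same fit. The difference passed for 0 of 13973 genes in edgeR, with 135 at an unadjusted p under 0.05, and for 0 in DESeq2 and in limma on the per-lysate ratios. The median SE of the difference was 0.45, and the 95% interval lay within 0.5 of 0 for 1 gene.

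Taken alone, WT slices gave 805 rises and 935 falls, and KO slices 0 of either, with 2697 genes at an unadjusted p under 0.05 in KO. The lack of calls in KO does not show that KO slices did not respond. Shift quartiles were -0.46 and 0.38 in WT and -0.36 and 0.32 in KO, with median SEs of 0.33 and 0.32. Of the 3237 genes called in the main fit, 3236 had the same sign in WT and KO, though calling on their average favours that. Fmr1 itself stood at -0.10 ± 0.24 (adjusted p = 0.818), and its paralogs Fxr1 and Fxr2 at 0.08 ± 0.20 and 0.01 ± 0.13. Setd2, a histone H3 methyltransferase with 7614 nt of coding sequence, held ratios of -1.19 and -0.97 in vehicle, 0.22 and 0.21 in WT HHT and -0.50 and -0.18 in KO HHT. It rose by 1.02 ± 0.21 (adjusted p = 0.00459), by 1.40 in WT and 0.63 in KO, and the difference did not pass (unadjusted p = 0.0904, adjusted p = 1.0 by edgeR).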

How the data were processed

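RNA was sequenced from input lysate, medium and heavy polysomes of 6 lysates. The deposited table holds estimated counts per gene, and 0 of its 251514 values were whole within 1e-06. A second deposited table holds TPM values that the authors had rescaled, treated as a score and used only for checks. RSEM 1.2.11, Bowtie2 2.1.0, DESeq2 1.16.1 and Trimmomatic 0.32 with the mm10 build appear in the submitters' processing notes, without roles. The 2 tables differ by 1 factor per gene and 1 per library. Any batch adjustment before deposit is not stated in the sources used here, and one would make the spread between lysates look too small.

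After rounding of the estimated counts, edgeR 4.0.16 (R 4.3.3) was run over all 18 libraries. It used TMM factors and a term per lysate (14 terms, 4 residual degrees of freedom). The expression filter of edgeR (filterByExpr) was applied and kept all 13973 genes. Fractions of 1 lysate share tissue per the labels' protocols, and deviations of input and medium correlated across genes at 0.35 in WT and 0.21 in KO. With the heavy fraction, which shares the lysate term, those of input correlated at 0.05 and 0.06 and those of medium at 0.07 and 0.01. The drug shift averages WT and KO with equal weight, with Benjamini-Hochberg adjustment over 13973 genes. Per-lysate ratios are log2 CPM with a prior count of 2. DESeq2 1.42.0 and limma 3.58.1 were alternatives, beside other scaling, filters, blocks and left-out lysates. Totals were 6298975 to 13834652 per medium or input library, and 0 columns of per-sample values were left unused.

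Coding sequences came from GENCODE M21 on GRCm38. Of the symbols 13413 matched as written, 469 through an older symbol and 91 not, and 13513 genes had a coding sequence. On simulated data over 13973 genes, 50 genes each had a known shift. The fit of the drug shift recovered 82% at 1, 48% at -1, 100% at 2 and 96% at -2, and called 10 unchanged genes. Simulated counts varied independently between libraries, at a spread read from the trend over all genes. Those 10 calls therefore do not give the error rate in the real data.

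The 12 largest rises and 12 largest falls were named among genes past 0.05 with at least 5 CPM and no overlap between treatments, without predicted gene models. To these came up to 4 genes per list by smallest adjusted p, and Fmr1, Fxr1, Fxr2 and Setd2. Other list members were named after their values were seen. The comparison and the gene lists were chosen with earlier results of these data known. Some named genes are not reported here.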

Additional observations from a re-analysis of the deposited data

Results flagged for a closer look

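The drug shift of Fmr1 was 0.99 higher in KO than in WT on the log2 scale, because both WT HHT lysates lay below the WT vehicle lysate and both KO HHT lysates above the KO vehicle lysate. Its edgeR test of the difference did not pass (unadjusted p = 0.0534), and the KO libraries held at most 8.53 CPM. The drug shift of Fxr2 was -0.22 in KO relative to WT, flagged by the same opposite directions, and its test of the difference did not pass either (unadjusted p = 0.407).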

How the results depend on the processing

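Against 1477 rises and 1760 falls, limma on the per-lysate ratios gave 848 and 1154, the fit with a replicate block for HHT replicate 2 gave 2570 and 2709, and HHT replicate 2 alone gave 2496 rises. WT alone gave 805 and 935, and KO alone 0 and 0. Leaving out 1 lysate at a time gave 265 to 1696 rises and 426 to 1751 falls, the lowest without the WT vehicle lysate. The labels do not say whether the replicate number marks a shared batch. HHT replicate 2 of both genotypes stood apart in rescaled TPM, and replicate 1 minus replicate 2 of the ratio correlated at 0.13 across genes between genotypes. Without the lysate term 990 genes rose and 1425 fell. DESeq2 called 1317 and 1230, with 3522 genes given no adjusted p. The rho with coding length was 0.43 in KO alone, against 0.53. The cause was not tested. Of 3050 values of the 161 named genes under 19 alternatives, 277 lost the call, 34 gained it and 0 reversed. Of the list medians 674 moved by less than the spread between lysates and 28 by more. The test of the genotype difference was not run for HHT replicate 1 or 2 alone or without a vehicle lysate.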
